A study of Homo sapiens with 3 samples.

Results

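Genes of the response to low oxygen were read on bead arrays from Illumina. The cells were labelled as MDA-MB-231, an established triple-negative human breast cancer line with mesenchymal traits. The 39 genes were chosen by name: the oxygen-regulated subunits HIF1A and EPAS1, regulators of these subunits, and genes known as targets of the hypoxia-inducible factors (HIFs). Of the 39 genes, 37 had at least 1 probe that the platform annotation names, 61 probes in all, out of 20045 genes with a probe. CA9 and FUT11 had no probe named in the annotation and were not analysed here. At a detection p-value under 0.01, 34 of the 37 genes were detected on at least 1 array and 33 on all 3. EGLN3, LOXL2 and PDK1 were detected on none.

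The series has 3 arrays, and each stands for a group of its own. Cells were transfected with an expression vector for FBP1 (the fructose bisphosphatase of liver and kidney, which acts in gluconeogenesis and opposes phosphofructokinase), with the empty vector, or served as a second control, called wt, with no handling stated; the control arrays are called the vector control and the wt control below. The medium was DMEM with 10% fetal calf serum, the incubator ran at 37 °C with 5% CO2, and no exposure to low oxygen is named. Whether the transfected cells were a pool or a clone, how long after transfection RNA was taken, and which promoter drove the vector are not given in the sources used here. With 1 array per group, no difference below has a replicate check, no p-value is given, and precision is limited by having so few arrays. In such bulk samples, fewer cells of a type and less RNA per cell cannot be told apart.

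HIF is a transcription factor made of an oxygen-regulated alpha subunit, HIF-1 alpha or HIF-2 alpha (encoded by HIF1A and EPAS1), and a constant beta subunit encoded by ARNT. With oxygen present, prolyl hydroxylases of the EGLN family mark the alpha subunit, the VHL complex recognises the mark, and the subunit is degraded, so control lies mainly on the protein and not on its mRNA. When oxygen is short the alpha subunit persists, binds short DNA elements with the core ACGTG or GCGTG, and raises genes of vessel growth, glycolysis, collagen processing, mitochondrial turnover and pH control.

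Levels below are background-corrected, quantile-normalised log2 intensities, and a level of one gene is never set against that of another, because each probe has its own brightness. A gene was called higher or lower between a pair of arrays where the difference reached 1.5-fold. Where the dimmer array did not detect the gene, the difference is a lower bound, taken from the gene's own level there or from the array's lowest detected probe, whichever was higher. Values given in threes are for the FBP1 array, the vector control and the wt control, in that order, and paired differences are from the vector control first and the wt control second.

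FBP1 itself had a signal of 1063.5 intensity units on the FBP1 array, 678.6 on the vector control and 530.8 on the wt control, so it was highest on the array labelled with its vector and was detected on the others too. After normalisation its level on the FBP1 array was 1.79-fold above the vector control and 2.44-fold above the wt control. The line's mesenchymal markers VIM, CD44, AXL, CAV1 and MSN were detected on all 3 arrays, and the luminal receptors ESR1 and PGR on none. Other markers of the line did not follow that pattern: SPARC was detected on no array, S100A4 was lower on the wt control (signals 9016.6, 7044.1 and 2471.5), and EPCAM, listed as not expressed, was detected on all 3 arrays (469.5, 399.6 and 341.6). VIM, CD44, AXL, CAV1 and MSN were each below both controls on the FBP1 array, by less than 1.5-fold (AXL farthest, log2 -0.48 and -0.49). EGFR differed by 0.21 and -0.22. CDKN2A and MTAP, neighbouring genes known to be lost by deletion in MDA-MB-231, went against the label on the FBP1 array. There 2 of 3 CDKN2A probes and the MTAP probe were detected, at signals of at most 120.6, and none of these was detected on either control array. Of the 3 probes of CDKN2B, another gene of that region, 1 was detected, on the vector control alone (signal 113.5). The epithelial gene CDH1, usually silent in this line, was also detected on the FBP1 array alone (level 6.54, against 4.66 on the vector control and 4.50 on the wt control). Whether the sample labelled FBP1 is mixed with other cells or mislabelled was not tested, and every FBP1 difference below is a difference of the array with that label. The part that this departure plays in the results was not tested either, and the FBP1 array is part of both FBP1 comparisons and not of the comparison between the controls.

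Members of the hypoxia list were higher on the FBP1 array than on either control, by small amounts and with few exceptions. Against the vector control, 10 members out of 34 detected (29.4%) were called higher, beside 6.30% of all 12895 detected genes, and 0 members were that much lower, beside 5.68%. Against the wt control, 11 of 34 (32.4%) were higher, beside 8.42%, and 0 were lower, beside 7.50%. The median difference of the members was 0.36 (log2) from the vector control and 0.43 from the wt control, and the medians over all detected genes were -0.01 and 0.00. A difference above 0 was found for 30 and 32 of the 34 members in these comparisons, beside 49.0% and 50.5% of all genes. Between the controls, 3 of 34 members (8.82%) were higher on the vector control, beside 3.67%, and 0 were lower, beside 3.04%, with a median of 0.02. Both differences from the FBP1 array use that same array, so they are not independent of each other.

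A filter on detection can favour genes that are high on a single array. Among the 33 members detected on all 3 arrays, 9 were higher than on the vector control (27.3%, beside 6.59% of 10499 genes), 10 higher than on the wt control (30.3%, beside 9.12%) and 3 higher between the controls (9.09%, beside 3.54%). None of the 33 was lower, beside 5.61%, 7.92% and 2.82% of the genes in the same comparisons. In the middle range of the members' own levels the contrast was smaller in both comparisons with the FBP1 array, but not between the controls. Of 16 members there, 2 were higher than on the vector control, beside 5.85% of 3504 genes of that range, and 4 were higher than on the wt control, beside 9.10%. Between the controls 2 of the 16 were higher, beside 2.45%, and 0 of the 16 were lower in any comparison, beside 4.85%, 7.42% and 1.46%. Their medians with FBP1 were 0.29 and 0.40, and between the controls 0.10. The 10 calls against the vector control therefore rest mainly on members outside that range, while 4 of the 11 calls against the wt control lay within it. The upward shift of the median was present within it in both comparisons.

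**Figure D1:**
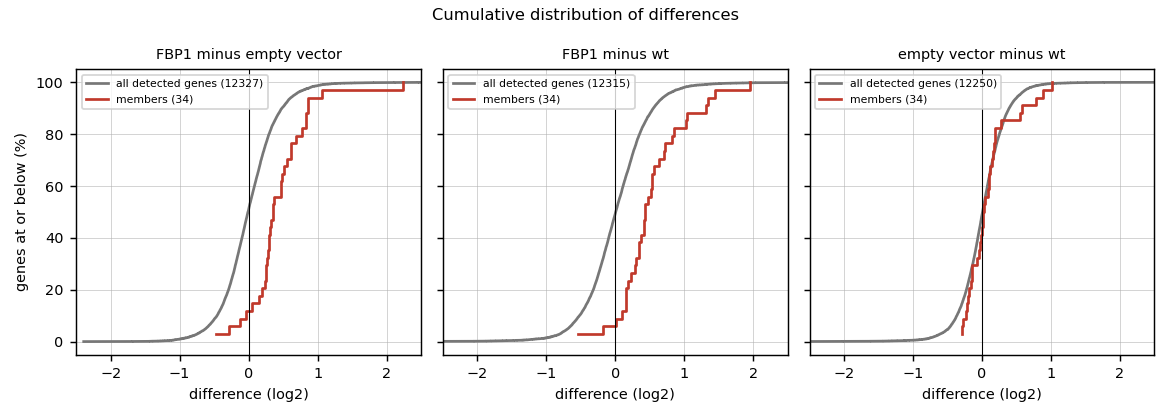
Share of genes (y axis, %) at or below a given log2 difference (x axis) for the 34 detected members (red) and all detected genes (grey) in the 3 comparisons. The red curve lies to the right of the grey one in both comparisons with the FBP1 array, where the medians are 0.36 and 0.43, and close to it over most of its length between the controls, where the median is 0.02.

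The oxygen-sensing genes themselves differed little between arrays. HIF1A had signals of 755.1 for the FBP1 array, 881.5 in the vector control and 839.9 in the wt control for its brightest probe, which became levels of 9.52, 9.65 and 9.51. Its 3 probes differed from the vector control by -0.44 to -0.10 and from the wt control by -0.25 to 0.01, so no HIF1A probe was at least 1.5-fold away from a control. Across the processing alternatives the HIF1A differences ran from -0.22 to 0.11 and from -0.15 to 0.30, on both sides of 0. EPAS1, whose product HIF-2 alpha shares many targets with HIF-1 alpha, had levels of 8.22, 7.95 and 7.99 on the 3 arrays in the same order. Its differences of 0.28 and 0.23 were also below 1.5-fold. EGLN1, the main prolyl hydroxylase and itself a HIF target, had levels of 7.45, 7.13 and 7.03, with the FBP1 array 1.25-fold above the vector control and 1.34-fold above the wt control. EGLN3, a prolyl hydroxylase that responds strongly to hypoxia in many cells, was below detection everywhere, with signals between 78.2 and 79.1.

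The regulators around HIF went different ways. KDM3A, a histone H3 lysine demethylase induced by HIF, had signals of 295.9 for the FBP1 array, 211.3 in the vector control and 210.7 in the wt control. The controls nearly coincided, with the FBP1 array 1.78-fold and 1.81-fold above them. CITED2, a feedback inhibitor that competes with HIF for the coactivators CREBBP and EP300, had levels of 10.91, 10.55 and 10.75 and stayed within 1.28-fold of each control. JMJD6, an oxygen-dependent lysyl hydroxylase of the nucleus, was the member farthest below the controls, with signals of 175.3, 229.3 and 241.9 and differences of -0.47 and -0.55, short of 1.5-fold.

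The secreted signals held the largest difference of the list. STC2, a stanniocalcin secreted in the paracrine control of calcium and phosphate and a known target of both HIF and the stress factor ATF4, had signals of 191.6 for the FBP1 array, 94.6 in the vector control and 102.7 in the wt control (probe ILMN_1691884). It was not detected on the vector control, so the first difference is a bound: the FBP1 array stood at least 4.7-fold above the vector control and 3.87-fold above the wt control. Before background correction the raw signals were 2.02-fold and 1.86-fold apart. The other stanniocalcin gene, STC1, behaved otherwise. Its levels of 10.53, 10.47 and 10.43 on the 3 arrays in the same order lay within 1.07-fold of one another.

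ADM, which encodes the vasodilator peptide adrenomedullin, had signals of 2067.0 for the FBP1 array, 1255.9 in the vector control and 1453.3 in the wt control. The FBP1 array was 1.82-fold above the first and 1.65-fold above the second. ANGPTL4, a secreted inhibitor of lipoprotein lipase, had levels of 8.27, 7.59 and 7.86 for its brightest probe, and was 1.61-fold above the vector control and 1.33-fold above the wt control. A dimmer ANGPTL4 probe put the difference from the vector control at 0.33 and not 0.69, so probes of this gene disagree on whether it reached 1.5-fold. VEGFA, the central growth factor of blood vessels, followed another order, with signals of 833.9, 749.0 and 416.7. It was 2.49-fold above the wt control and 1.23-fold above the vector control, and the vector control was itself 2.02-fold above the wt control. A dimmer VEGFA probe gave the same order against the wt control (1.33 and 1.38 for the FBP1 array and vector control) and -0.05 between the FBP1 array and vector control.

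The promoters of the 4 members with the largest smaller difference from both controls are printed to show the bases among which the HIF core is found. They are STC2, DDIT4, KDM3A and LOX, each as the 250 bases before the RefSeq transcription start (build GRCh38.p14, 5′ to 3′ on the gene's strand; KDM3A has 2 listed starts and LOX 3, and the one listed first is shown). Capitals mark ACGTG and GCGTG on either strand, the other strand reading CACGT and CACGC.
STC2 promoter, chr5:173328415-173328664, minus strand: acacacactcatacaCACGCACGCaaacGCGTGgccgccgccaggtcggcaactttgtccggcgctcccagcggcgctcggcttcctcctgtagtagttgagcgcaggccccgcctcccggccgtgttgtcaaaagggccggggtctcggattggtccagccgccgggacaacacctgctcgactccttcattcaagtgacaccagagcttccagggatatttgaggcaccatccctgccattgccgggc
DDIT4 promoter, chr10:72273674-72273923, plus strand: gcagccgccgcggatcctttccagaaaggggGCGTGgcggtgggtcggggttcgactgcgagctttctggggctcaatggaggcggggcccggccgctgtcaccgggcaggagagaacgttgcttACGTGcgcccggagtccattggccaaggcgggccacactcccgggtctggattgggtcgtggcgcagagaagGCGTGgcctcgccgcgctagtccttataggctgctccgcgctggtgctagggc
KDM3A promoter, chr2:86441121-86441370, plus strand: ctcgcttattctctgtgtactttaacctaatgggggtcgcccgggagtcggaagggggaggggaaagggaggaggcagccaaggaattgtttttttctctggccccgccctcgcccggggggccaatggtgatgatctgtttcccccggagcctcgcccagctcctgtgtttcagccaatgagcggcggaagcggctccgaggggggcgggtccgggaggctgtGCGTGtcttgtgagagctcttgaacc
LOX promoter, chr5:122078260-122078509, minus strand: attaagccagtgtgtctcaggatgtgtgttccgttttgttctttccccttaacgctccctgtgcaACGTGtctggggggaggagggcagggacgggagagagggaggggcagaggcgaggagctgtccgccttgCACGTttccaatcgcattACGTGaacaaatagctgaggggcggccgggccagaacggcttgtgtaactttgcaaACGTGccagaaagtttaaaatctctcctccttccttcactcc
LOX held 4 copies of ACGTG, beginning 185, 116, 98 and 42 bases before the start, the second of them on the other strand. DDIT4 held ACGTG 125 bases before the start and GCGTG at 219 and 53 bases. STC2 held no ACGTG but GCGTG at 235, 231 and 222 bases, the first pair on the other strand and overlapping by a base, and KDM3A held a single GCGTG 26 bases before its start.

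The table of promoters held 27 of the 34 detected members. Of these, 18 (66.7%) had ACGTG on either strand in the 250 bases before at least 1 start, beside 28.4% of 10248 detected genes and 21.7% of all 27305 genes in the table. GCGTG was present for 19 (70.4%), beside 51.5% and 36.2%, and the E-box CACGTG, which contains ACGTG and is also bound by MYC, MXI1 and BHLHE40 proteins, for 6 (22.2%), beside 11.0% and 7.73%. Most members were named for being HIF targets, so the higher share is a description of the list. A match is not a bound site, and the arrays do not measure binding.

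Collagen-modifying enzymes had a difference above 0 on the FBP1 array for all 5 detected genes, beside 49.0% of all genes against the vector control and 50.5% against the wt control. Against the vector control 2 of 5 were called higher, beside 6.30% of all genes, and against the wt control 1 of 5, beside 8.42%. LOX, the secreted lysyl oxidase that starts collagen crosslinking, had signals of 307.9 for the FBP1 array, 198.1 in the vector control and 222.7 in the wt control. It was 2.08-fold and 1.76-fold above the controls. PLOD2, the telopeptide lysyl hydroxylase that prepares collagen for stable crosslinks, had signals of 3026.4, 1870.0 and 2348.0, and its 3 probes were 0.64 to 0.84 above the vector control and 0.47 to 0.53 above the wt control. All of the PLOD2 probes thus passed 1.5-fold against the first control and none against the second. PLOD1, a lysyl hydroxylase of the collagen helix, had levels of 10.99, 10.70 and 10.43. The prolyl hydroxylase subunit genes P4HA1 (9.68, 9.31 and 9.14) and P4HA2 (9.66, 9.17 and 9.32), which stabilise the collagen helix, were 1.29-fold and 1.40-fold above the vector control and below 1.5-fold in both comparisons. LOXL2, a lysyl oxidase relative, was not detected, with signals of at most 81.7.

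Genes of mitophagy and mitochondria showed modest differences. BNIP3, a mitophagy receptor that is a classical HIF target, had signals of 5164.5 for the FBP1 array, 4036.7 in the vector control and 4135.3 in the wt control. The controls nearly coincided, with the FBP1 array 1.38-fold and 1.39-fold above them. BNIP3L, the related receptor, had levels of 9.74, 9.77 and 9.22, so that the FBP1 array and vector control coincided and the wt control was lower by 0.52 and 0.55. AK4, a mitochondrial adenylate kinase, had levels of 9.79, 9.32 and 9.36 for its brightest probe, but its 4 detected probes ranged from -0.09 to 0.46 against the vector control. FAM162A, a mitochondrial protein linked to cell death in hypoxia, was within 1.14-fold of both controls. PDK1, the kinase that shuts pyruvate dehydrogenase under hypoxia, was below the detection threshold on all arrays, with signals of 81.2, 100.4 and 94.4. PDK2, PDK3 and PDK4, its relatives, were detected on all 3 arrays, and only PDK4 among them was at least 1.5-fold above the vector control (0.72). Against the wt control PDK2 (0.60) and PDK4 (0.61) were called higher. PDK3 was 1.86-fold higher on the vector control than on the wt control.

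Among genes that control growth and transcription, several formed a step from wt to empty vector to FBP1. NDRG1, a stress-induced suppressor of metastasis in several tumours, had signals of 3485.3 for the FBP1 array, 2540.4 in the vector control and 1465.7 in the wt control. It was 2.72-fold above the wt control and 1.47-fold above the vector control. BHLHE40, a repressor of the circadian clock family, had signals of 1898.5, 1227.3 and 884.0, and was 2.54-fold above the wt control and 1.70-fold above the vector control. ANKRD37, a small ankyrin-repeat protein induced by HIF-1, had levels of 8.42, 8.18 and 7.40, so most of its 2.03-fold distance from the wt control was already present on the vector control. DDIT4 (REDD1), an inhibitor of mTORC1 under energy and oxygen stress, was different in that its controls lay close together, with signals of 1734.5, 1066.0 and 987.7. The FBP1 array was 1.81-fold and 2.06-fold above them.

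The other members of that role were called in neither comparison. MXI1, an antagonist of MYC, was dim, with levels of 5.76, 5.25 and 5.47, and was 1.43-fold above the vector control. ZNF395, RIOK3 and WSB1, a zinc finger factor, an atypical kinase and a ubiquitin ligase subunit, stood between 0.26 and 0.35 above the vector control and between 0.16 and 0.42 above the wt control.

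In lipid, glycogen and secretory metabolism, INSIG2 and TMEM45A reached 1.5-fold by narrow margins. INSIG2, which holds the SREBP complex in the endoplasmic reticulum and so restrains sterol synthesis, had signals of 624.7, 467.8 and 458.0 on the 3 arrays in the same order, 1.53-fold and 1.62-fold. TMEM45A, a multi-pass membrane protein induced by hypoxia, had signals of 382.5, 297.0 and 298.2, 1.53-fold and 1.55-fold, and a second probe gave 0.53 and 0.47 (log2), below 1.5-fold. HILPDA, which protects lipid droplets from lipolysis, had levels of 8.41, 8.15 and 8.13. ERO1A, the oxidase that drives disulfide formation, had levels of 8.35, 8.09 and 7.98. GBE1, the glycogen branching enzyme, went the other way, with levels of 9.42, 9.71 and 9.61 and differences of -0.29 and -0.18, the second of which was as high as 0.09 under another processing. CA12, a carbonic anhydrase of the cell surface that helps to export acid, was within 1.26-fold of both controls, at levels of 7.49, 7.34 and 7.15.

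**Figure D2:**
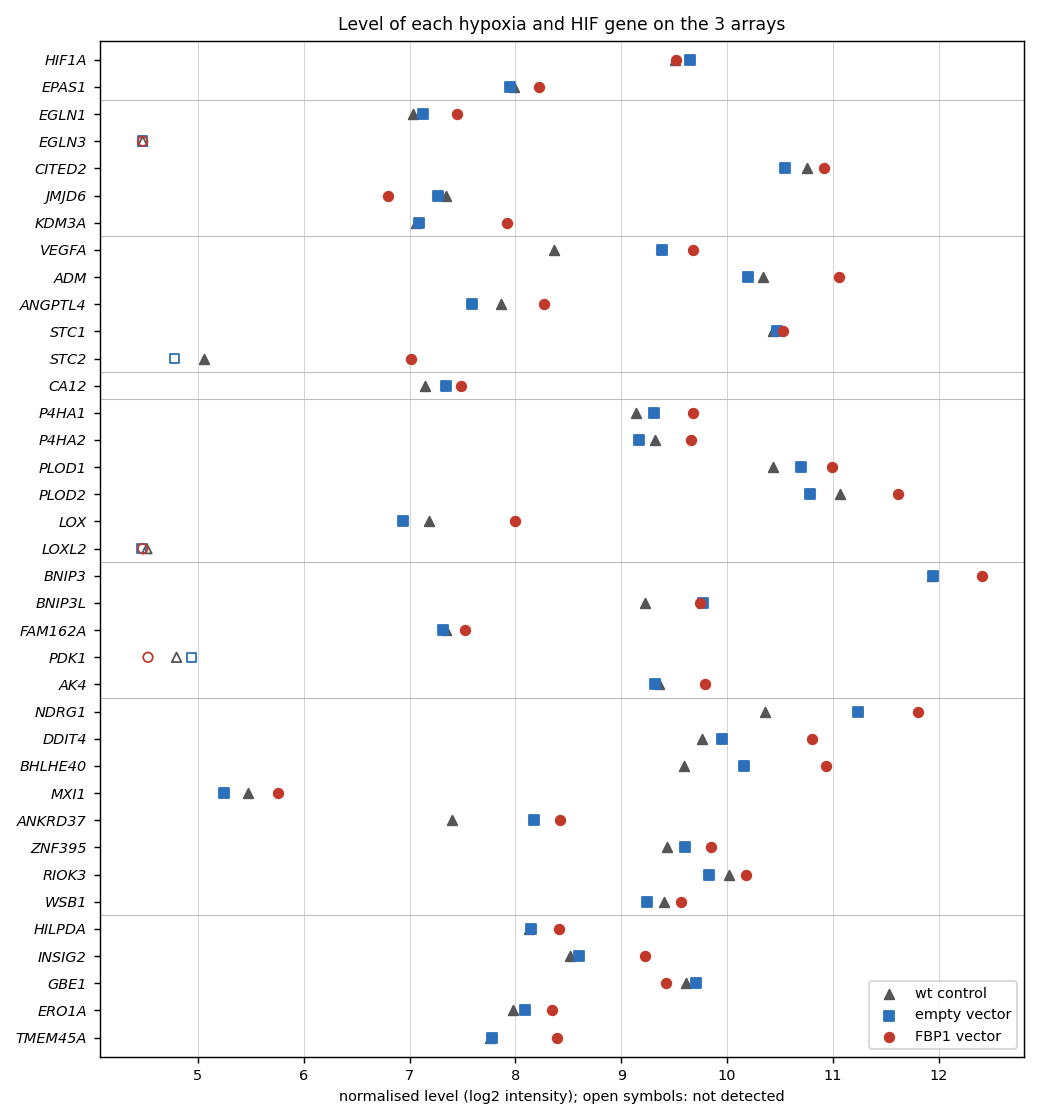
Normalised log2 intensity (x axis) of the 37 measured members on the FBP1 vector array (red circles), the vector control (blue squares) and the wt control array (grey triangles), in blocks by role, with 1 array per group and open symbols where a gene was not detected. For KDM3A, INSIG2 and BNIP3 the control symbols nearly coincide to the left of the FBP1 array, while for VEGFA, NDRG1 and ANKRD37 the wt control stands apart from the vector control.

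The comparison between the controls asked which members differ without the FBP1 vector. VEGFA (2.02-fold), NDRG1 (1.85-fold) and ANKRD37 (1.72-fold) were higher on the vector control than on the wt control, and BHLHE40 (1.49-fold) and BNIP3L (1.47-fold) were just under 1.5-fold by their brightest probes. A dimmer BNIP3L probe, detected on all arrays, was past that threshold, at 1.59-fold between the controls and 1.66-fold for the FBP1 array over the wt control. The lowest members on that scale were PLOD2 (-0.29), ANGPTL4 and STC2 (both -0.28, the latter a bound) and LOX (-0.24). For these 4 genes the vector control was the lower control, so their difference from the vector control exceeded that from the wt control. For VEGFA, NDRG1, ANKRD37 and BHLHE40 the wt control was the lower control and the reverse held.

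**Figure D3:**
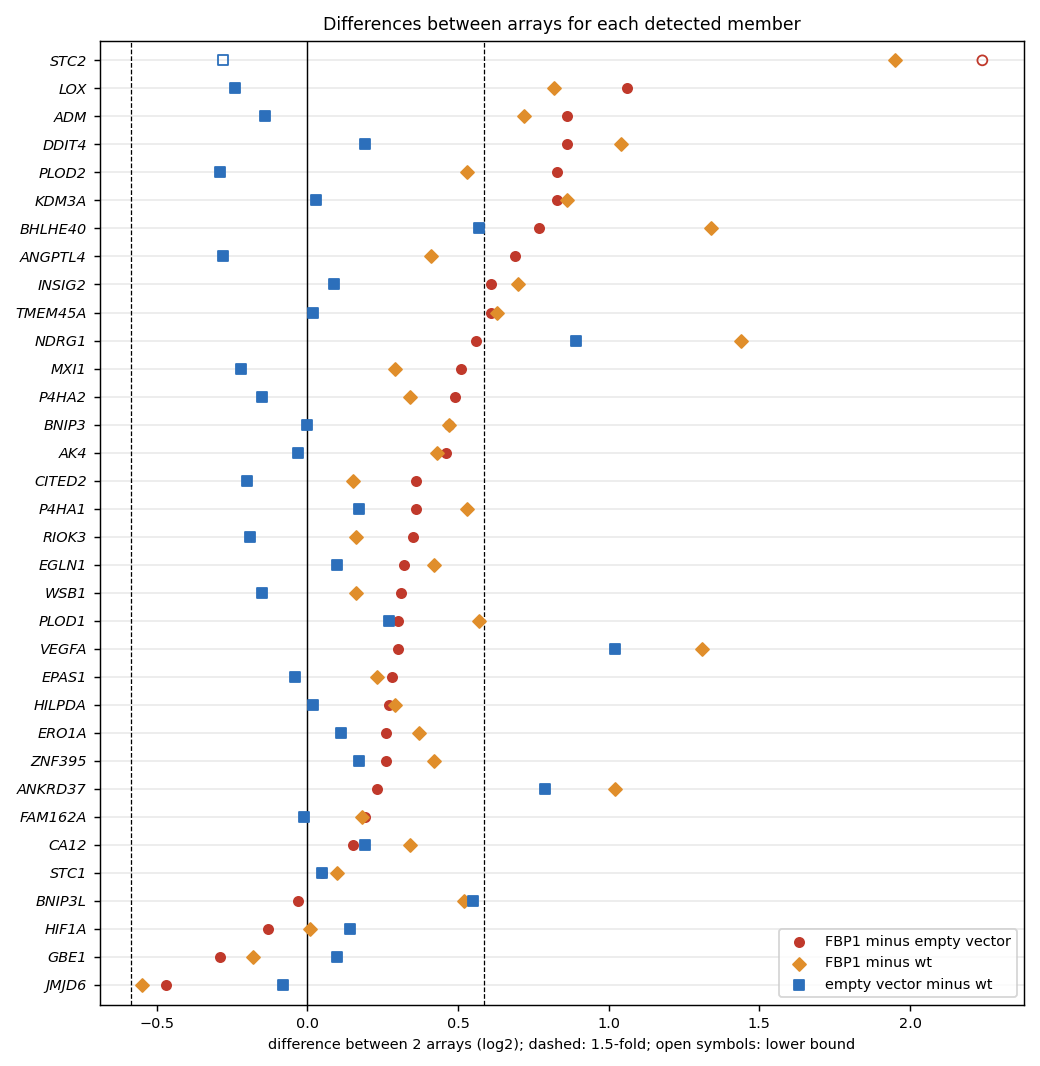
Log2 difference (x axis) between pairs of arrays for the 34 detected members, ordered by the difference between the FBP1 array and vector control (red circles), with the FBP1 array and wt control (orange diamonds) and the 2 controls (blue squares), open symbols for lower bounds and dashed lines at 1.5-fold. The red circles of 10 members lie beyond the right dashed line, from TMEM45A (0.61) to STC2 (2.24), and no symbol lies beyond the left one.

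Probes of the same member mostly gave the same direction in the comparisons with the FBP1 array, and less often between the controls. Probes detected on no array, which VEGFA, ANGPTL4, JMJD6, P4HA1, AK4 and MXI1 also had, are not in the counts here. Of 11 members with several probes detected on all arrays, 8 had every probe on the same side of 0 between the FBP1 array and vector control, 10 between the FBP1 array and wt control and 6 between the controls. The median spread between probes of a member was 0.18, 0.16 and 0.19 (log2) in these comparisons, and the largest was 0.55 and 0.41, both for AK4, and 0.38, for HIF1A. From the vector control 23 of 34 members differed by less than this largest spread, and between the controls 29 of 34. From the wt control only 13 of 34 did so. HIF1A, EPAS1, CITED2, STC1, CA12, P4HA2, FAM162A, MXI1, RIOK3, WSB1, HILPDA, GBE1 and ERO1A, 13 members, did so in all 3 comparisons. The members' median of 0.36 from the vector control is also below the largest spread of 0.55 there. Their median of 0.43 from the wt control is slightly above the 0.41 of that comparison.

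Genes of the HIF machinery that are no members showed no shared direction. Of 15 detected, 1 was at least 1.5-fold above the vector control and 0 below, with a median of -0.03. Against the wt control the counts were 1 and 0, with a median of -0.06. Of all detected genes, 6.30% were called higher and 5.68% lower than the vector control, and 8.42% and 7.50% than the wt control. EP300, a coactivator of HIF, had levels of 6.64, 6.04 and 6.13 on the 3 arrays in the same order, and OS9, a lectin of the endoplasmic reticulum reported to bind HIF-1 alpha, 7.06, 6.53 and 6.05. CUL2, the scaffold of the VHL ubiquitin ligase, differed by -0.50 and -0.26 and HSP90AB1, a chaperone of HIF-1 alpha, by -0.26 and -0.22. VHL (0.45 and 0.41) and ARNT (0.35 and -0.01) stayed below 1.5-fold.

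The glycolytic HIF targets were shifted less than the members. Of 19 detected, 3 were at least 1.5-fold above the vector control (15.8%, beside 6.30% of all genes) and 0 below (beside 5.68%), with a median of 0.22. Against the wt control 3 were above (15.8%, beside 8.42%) and 0 below (beside 7.50%), with a median of 0.28. The bifunctional phosphofructokinase regulator PFKFB4 was highest (0.88 and 1.41), followed by the aldolase gene ALDOC (0.84 and 0.64) against the vector control and by SLC2A3 (1.14) against the wt control. GAPDH (-0.10 and -0.16) and GPI (-0.01 and -0.13) were lowest, and the glucose transporter gene SLC2A1 differed by 0.11 and 0.48. Of 17 other detected HIF targets, 4 were at least 1.5-fold above (23.5%, beside 6.30%) and 1 below (5.88%, beside 5.68%) the vector control. The median was 0.40. Against the wt control 7 were above (41.2%, beside 8.42%) and 2 below (11.8%, beside 7.50%), with a median of 0.48. The vasoconstrictor gene EDN1 (1.09 and 0.56) and FAM13A (0.92 and 0.84) were highest against the vector control, while CCNG2 (1.15) and KDM4B (1.14) were highest against the wt control. CXCR4, the receptor of the chemokine CXCL12, was lowest and beyond 1.5-fold in both comparisons (-1.01 and -1.41), and the transferrin receptor gene TFRC followed (-0.26 and -0.64).

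Relatives of the members gave a partly similar picture. Whether these relatives are themselves HIF targets was not examined. Of 30 detected, 7 were at least 1.5-fold above the vector control and 3 below (median 0.22), and 9 above and 1 below the wt control (median 0.31). CITED1, a coactivator of the CITED family, differed by 1.07 and 1.80, and the lymphatic growth factor gene VEGFC by 0.91 and 0.68. NDRG4 (-1.27 and -0.41) and MXD3 (-0.81 and -0.46) were lowest against the vector control. RIOK2 (-0.62) was lowest against the wt control and the only relative called lower there. An upward shift of the median was thus not confined to the named members in these lists, and no difference between the lists was tested.

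Genes of other states differed on the FBP1 array as well. VLDLR is in both the ATF4 list and the list of other HIF targets. For the lists in this paragraph, the shares over all genes were 6.30% higher and 5.68% lower than the vector control. Against the wt control they were 8.42% and 7.50%. Targets of ATF4, the integrated stress factor that also drives STC2 and DDIT4, were at least 1.5-fold above the vector control for 7 of 19 detected genes and below for 0 (median 0.39). Above the wt control were 5 and below it 1 (median 0.21). PHGDH (at least 3.39 and 2.96 on the log2 scale) and GDF15 (1.67 and 1.35) were highest against the vector control, and SLC7A5 (-0.47 and -0.63) and ATF5 (-0.31 and -0.45) lowest. In the mitotic list (G2 and M), 15 of 20 detected genes were called lower than in the vector control and 16 lower than in the wt control, and 0 higher in each (medians -0.88 and -0.74); KIF11 (-0.49) and CCNB1 (-0.52) were highest and CENPE (-1.94) and KIF20A (-1.32) lowest against the vector control. Luminal breast markers were detected for 10, 9 and 8 of 15 genes on the 3 arrays in the same order, with summed signals of 7071.9, 6327.6 and 5821.6, and 6 were at least 1.5-fold above the vector control and 0 below. ESR1, PGR, GATA3 and TFF1, defining luminal markers, were detected on no array. FOXA1, another defining luminal factor, was detected on the FBP1 array alone, with signals of 153.6, 85.8 and 89.7, at least 3.4-fold above each control. The luminal genes AGR2 (1.34 and 1.78), SPDEF (0.69 and 1.98) and ELF3 (0.67 and 1.03) were also called higher there against both controls, and KRT8 differed by -0.51 and -0.31. The part of these states in the hypoxia result was not tested. Fibroblast markers were detected for 3, 4 and 3 of 9 genes on these arrays, blood cell markers for 4, 4 and 5 of 8 and endothelial markers for 1, 2 and 1 of 5.

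**Figure D4:**
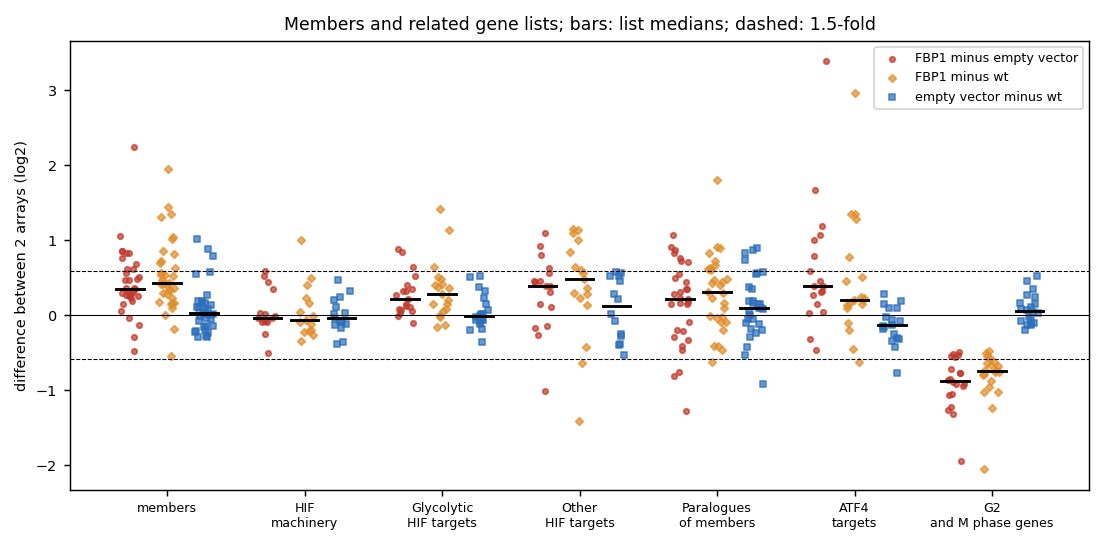
Log2 differences (y axis) of each detected gene in the members and 6 related lists, for the FBP1 array and vector control (red), the FBP1 array and wt control (orange) and the controls (blue), with list medians as black bars and 1.5-fold as dashed lines. The bars of the members (0.36 and 0.43), the other HIF targets (0.40 and 0.48) and the ATF4 targets (0.39 and 0.21) lie above 0. So do those of the glycolytic HIF targets (0.22 and 0.28) and the relatives of the members (0.22 and 0.31). The bars of the HIF machinery (-0.03 and -0.06) lie close to 0, and those of the G2 and M phase genes (-0.88 and -0.74) below.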

How the data were processed

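Total RNA of 3 MDA-MB-231 samples was labelled with Cy3 and read on Illumina bead arrays, per the labels. The deposited non-normalised table gives probe intensity and a detection p-value, per the file headers. The authors also deposited a processed intensity table, with a normalisation method that no source used here gives. Lowest non-normalised signals were 66.89, 68.2 and 63.29 on the FBP1, empty vector and wt arrays, with background still in them, at medians of 91.71, 94.59 and 93.69; processed medians were 87.76, 87.92 and 87.78. Detected probes numbered 20190, 20168 and 20117.

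Of 48107 probes, 48105 had all values and were used. Their intensities were corrected and quantile-normalised with neqc (limma 3.58.1, R 4.3.3, offset 16, background from the detection p-values) and taken as log2. The annotation gave 30113 probes a single gene and 8 several, which were not used; 30074 took the current symbol from RefSeq by gene ID. A gene was read from its brightest probe. Genes detected at p under 0.01 on at least 1 array entered all 3 comparisons. All members were named; of each further list, the 2 highest and 2 lowest against the vector control, and a few others chosen after their values were seen. Members, lists and settings were chosen with earlier results of these data known. Promoters came from RefSeq (GRCh38.p14). The steps were tested on simulated arrays and used Python 3.11.15, numpy 2.4.6, pandas 2.3.3 and matplotlib 3.10.9. The 9 alternatives changed the background correction, scaling, offset, detection threshold, filter, probe rule or source of values.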

Additional observations from a re-analysis of the deposited data

How the results depend on the processing

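No alternative gave a member at least 1.5-fold lower in any comparison, and the member median kept its sign in all 9. Scaling each array to a common median, in place of quantile normalisation, shifted the median of all genes by 0.21, 0.29 and 0.09 in the comparisons of FBP1 with the vector control, FBP1 with wt, and the controls. Under it the members' medians were 0.59, 0.73 and 0.10, which is 0.38, 0.43 and 0.01 above all genes. At least 1.5-fold higher were 18, 24 and 5 members (52.9%, 70.6% and 14.7%), beside 14.8%, 23.2% and 5.36% of all genes. This scaling also turned 84.0%, 91.1% and 76.3% of all called genes upward, beside 52.6%, 52.9% and 54.7%. With the authors' processed values 7 members (20.6%) were higher in each comparison with the FBP1 array, beside 2.04% and 3.21% of all genes. Between the controls 2 were higher (5.88%, beside 0.512%), and the median there was 0.01. Of all calls against the vector control under these values, 65.3% were upward (263 higher and 140 lower). Over all genes and alternatives, the calls against the vector control ranged from 263 to 1905 higher and from 140 to 767 lower, those against the wt control from 414 to 2993 and from 256 to 1006, and those between the controls from 66 to 691 and from 65 to 433.

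The members called in every alternative were ADM, STC2, PLOD2, LOX, DDIT4 and BHLHE40 against the vector control (6 of 10), VEGFA, ADM, STC2, NDRG1, DDIT4, BHLHE40 and ANKRD37 against the wt control (7 of 11), and VEGFA and NDRG1 between the controls (2 of 3). STC2 ranged from 0.93 to 2.43 and from 0.82 to 2.23 against these controls, and it was left out where detection on all arrays was required. ANGPTL4, INSIG2 and TMEM45A fell under 1.5-fold against the vector control in at least 4 alternatives, down to 0.32, 0.50 and 0.45. KDM3A fell under it against each control with the authors' values, to 0.54. Against the wt control LOX (0.53), INSIG2 (0.56) and TMEM45A (0.46) were also under 1.5-fold at their lowest, and TMEM45A kept its call in 4 of 9 alternatives. No paired analysis was possible because each group has 1 array, and for the same reason no array could be left out. Dim genes are limited by signal over background: members near it, such as MXI1 and STC2, are near or under the detection threshold on an array, where a difference is a bound or rests on little signal. The cause of these shifts was not tested.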
